A study of Homo sapiens with 6 samples.

Results

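Messenger RNA of SH-SY5Y cells in which CSB had been depleted was compared with that of cells carrying a control hairpin. SH-SY5Y is a human neuroblastoma line with the features of sympathetic neuroblasts. The members are the 18006 genes, of 32575 listed in any library, whose mean reached 10 in the control or the CSB group. Per the labels, the control cells received lentivirus with the non-targeting hairpin SHC002 and the depleted cells lentivirus with a hairpin against CSB. All cells were selected with puromycin and cultured for 2 to 3 weeks, and total RNA was extracted with Trizol. Libraries were made from 1 µg of RNA with the TruSeq kit and sequenced as read pairs. Each group had 2 libraries, and another group of 2 libraries with a hairpin against CSA entered the same fit, where it also informs the spread, and served as a further comparison. The labels name the genotypes as mutant and wild type whereas the protocols describe hairpins, so the depleted cells are called a knockdown. The hairpin leaves residual transcript, 1 cell line stands for all neurons, and whether the 2 libraries in a group stem from separate transductions is not in the labels. The p-values therefore measure the spread between these libraries, which may be technical.

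CSB, the product of ERCC6, is a DNA-dependent ATPase of the SWI/SNF family. It is recruited to RNA polymerase II that has stalled at a lesion and there starts transcription-coupled nucleotide excision repair, and it also acts in transcription and chromatin remodelling in undamaged cells. Inherited loss of CSB causes Cockayne syndrome, in which growth failure and neurodegeneration are prominent. The comparison asks which transcripts of a neuronal cell line change when CSB is reduced.

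Levels are scaled counts, that is reads per gene divided by a library's size factor, and they are given for control libraries 1 and 2 and CSB libraries 1 and 2 in that order. A fold change is CSB knockdown minus control on the log2(scaled count + 1) scale ± SE, and the adjusted p is Benjamini-Hochberg adjusted over 28388 tested genes in a limma fit of the 6 libraries. Genes rose or fell where it was below 0.05. For gene lists, the 4 figures in square brackets after a count repeat it without control library 1, control library 2, CSB library 1 and CSB library 2. In bulk RNA, fewer cells of a type and less RNA per cell cannot be told apart. The control libraries held 21288892 and 21983668 reads, the CSB libraries 20075100 and 26758162, and mitochondrial transcripts took 5.73 to 6.51% of each of the 6 libraries. Nearest the threshold, CXorf67 was included with 7.71 and 12.4 in the CSB libraries and SCML2P2 was left out with 13.2 and 6.60 there, a mean of 9.91. Of the 10382 tested genes that are not members, 133 rose and 74 fell.

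ERCC6 itself (chromosome 10, 49455368 to 49539538, minus strand, hg38) stood at 615 and 593 in the controls against 258 and 302 in the CSB knockdown. Both CSB libraries lay below both controls (log2 fold change -1.11 ± 0.08, adjusted p = 2.1e-06), a level of 0.463 times the control mean, so about that share of the transcript remained. ERCC8, which encodes CSA, had 219 and 217 against 186 and 215, and its difference did not pass (log2 fold change -0.12 ± 0.12, adjusted p = 0.552).

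Markers of the labelled cell type were present. The sympathetic transcription factors PHOX2A (14567 and 13724 in the controls, 18293 and 17521 in the CSB libraries) and HAND2 (26360.0 and 25082, 26956 and 26831) were abundant in every library. The noradrenaline-forming enzyme DBH had 8265 and 7961 against 7313 and 7834, whereas TH, the first enzyme of catecholamine synthesis, had only 13.9 and 20.3 against 8.81 and 11.6. Neither enzyme passed the test. The summed level of Schwann cell and glial markers went from 835.5 to 836.3 in the controls to 2569 to 2681 in the CSB libraries. Among 6 members 2 rose, NGFR and PMP22 (0.80 ± 0.07), a myelin protein. Much of the gain lay in NGFR alone, whose mean was 109 with the control hairpin and 1436 with CSB depleted. NGFR also belongs to the neurotrophin list below, so this sum is not an observation separate from the rise of that gene. The glial markers SOX10, FOXD3, CDH19 and FABP7 were not listed. Of 10 fibroblast markers among the members, 6 rose and 1 fell, the fall being THY1 (-0.58 ± 0.05), and their sum went from 14030 to 14330 in the controls to 16910 to 17650. Endothelial markers summed to 93.6 to 94.5 in the controls and 111 in the CSB libraries, with none called. Epithelial markers summed to 321 to 328 and 291 to 317, with 1 fall, KRT19 (-1.68 ± 0.18), a keratin. Haemoglobin transcripts were found almost only in control library 2, where HBB had 373 and HBA2 289, against 0 in every other library for both. The part of these cell types in the results below was not tested.

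Of the 18006 members, 6499 changed, 4058 of them upward and 2441 downward. Over all tested genes 23.6% were called, 14.8% as rises and 8.86% as falls. At least 2-fold changes numbered 484 rises and 235 falls, and the median log2 fold change was 0.09 among members and 0.10 among all tested genes. The excess of rises (62.4% of calls) depended on scaling: rises made up 47.3% with TMM factors, 47.6% with upper quartile scaling, 51.0% with total reads and 43.3% with DESeq2. The count of calls was 2452 without control library 1, 2152 without control library 2 and 1704 without CSB library 1 or 2. Between the 2 knockdowns 7893 members differed, against 29.4% of all tested genes.

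The direction of change went with base composition. Protein-coding members, of which 13769 (99.8%) had a GC value, were divided into 5 equal bins by the GC content of their transcripts. From the bin with the lowest GC content to the highest, 12.2, 17.8, 23.1, 31.9 and 45.3% of genes rose and 24.4, 21.9, 18.1, 12.6 and 7.23% fell. The median log2 fold change went from -0.05 to 0.27. With the GC trend of each library removed, rises made up 44.6% of 6190 calls. With a gene length trend removed instead, they made up 46.0% of 6392 calls. By genomic span the gradient was small, with rises in 28.1% of the shortest of 5 bins and 25.6% of the longest and falls in 12.5% and 19.8%. On chromosome 19, 391 of 1284 members rose and 70 fell (median 0.20).

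**Figure D1:**
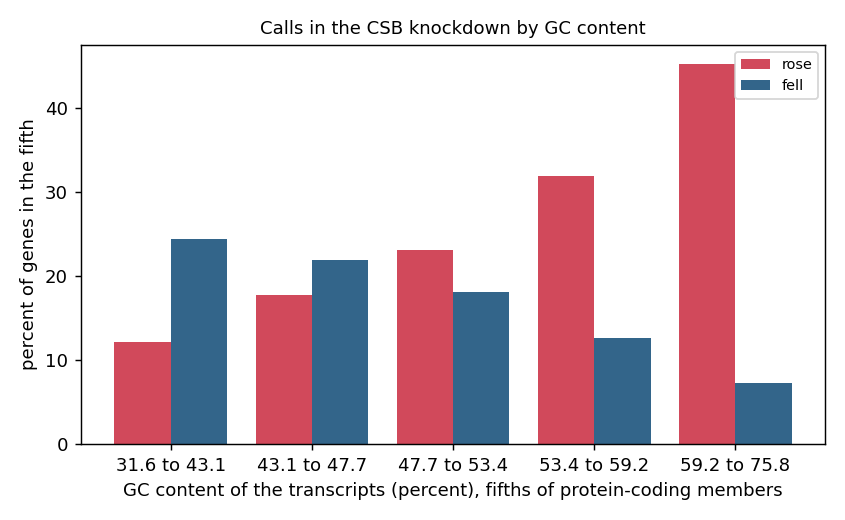
Bars give the percent of protein-coding members that rose or fell in the CSB knockdown within each of 5 equal bins of transcript GC content, whose bounds in percent are on the horizontal axis. Rises climb from 12.2 to 45.3% and falls drop from 24.4 to 7.23%.

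The 15 largest falls included the neuroendocrine factor INSM2, imprinted genes and non-coding RNAs. INSM2, a zinc finger transcription factor, had 399.8 and 406 in the controls against 14.3 and 15.7 in the CSB libraries, 26.9 times lower. The long non-coding RNA LINC00890 (chromosome X, 111511662 to 111522399, plus strand) went from 96.5 and 98.4 to 2.20 and 4.95 (log2 fold change -4.50 ± 0.32, adjusted p = 1.2e-06). The non-coding transcript KIAA0125 had 120.3 and 119.6 against 3.30 and 10.7 (log2 fold change -4.09 ± 0.34, adjusted p = 3.9e-06). In each of these the CSB libraries lay far below both controls. ARHGAP36, which activates Gli signalling in neural precursors, had 2599 and 2672 against 248 and 240.1, a 10.8-fold fall. FGL1, a secreted fibrinogen-like protein, went from 59.7 and 47.3 to 4.40 and 4.95 (log2 fold change -3.25 ± 0.23, adjusted p = 1.2e-06). Further falls without overlap were those of DGKK, a diacylglycerol kinase (-2.64 ± 0.13), TNNT2, cardiac troponin T (-2.58 ± 0.12), P2RY6, a receptor for uridine nucleotides (-2.40 ± 0.18), the cytokine IL32 (-2.40 ± 0.22) and the Ras-like GTPase RERG (-2.27 ± 0.17). SYT12, a synaptotagmin, fell too (-2.46 ± 0.31), but this was lost without CSB library 1 or 2 (adjusted p up to 0.0744). At a lower level than asked of those 15, NEUROG2, a proneural transcription factor, had 17.9 and 28.0 in the controls against 0 and 0.825, which is 1 read in all, in the CSB libraries (log2 fold change -4.12 ± 0.35, adjusted p = 4.7e-06). Its ratio of reads was 0.018 with an exact 95% interval of 0.000508 to 0.12, which covers counting error only.

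The largest of the 15 largest rises was that of NGFR. It encodes the p75 neurotrophin receptor and had 116 and 102 in the controls against 1358 and 1515 in the CSB libraries, 13.1 times the control level. NR4A3, an orphan nuclear receptor that is induced by activity, went from 45.8 and 50.2 to 219 and 237 (log2 fold change 2.23 ± 0.17, adjusted p = 2.2e-06). DCN, the small matrix proteoglycan decorin, stood at 165 and 147 against 783 and 683 (log2 fold change 2.23 ± 0.12, adjusted p = 1.8e-07). No CSB library overlapped a control for these 3 genes. The atypical cadherin FAT3 (197 and 161 to 666 and 758, 1.99 ± 0.10) and the synaptic cadherin CDH8 (52.7 and 56.9 to 204 and 222, 1.94 ± 0.17) rose as well, as did the long non-coding RNA AP000479.1 (1.92 ± 0.10). EPHB6, an Eph receptor without kinase activity, went from 7.96 and 11.6 to 82.6 and 64.4 (log2 fold change 2.80 ± 0.35, adjusted p = 9.6e-05), but this was lost without CSB library 1 (adjusted p = 0.059). Calls that were likewise lost were those of FAM19A5, a chemokine-like secreted protein (2.90 ± 0.43), BMPER, which binds bone morphogenetic proteins (2.38 ± 0.29), MAB21L2 (2.28 ± 0.29) and CTGF, a matricellular protein (2.17 ± 0.30). For FAM19A5, MAB21L2 and CTGF this took the omission of CSB library 1 or 2 (adjusted p up to 0.0869, 0.0654 and 0.0776), for BMPER that of control library 2 or CSB library 1 or 2 (up to 0.108). NKPD1 (2.10 ± 0.34) lost its call without control library 1 or CSB library 1 or 2 (up to 0.0984), CENPVP3 (1.91 ± 0.35) without control library 2 or CSB library 1 or 2 (up to 0.0822). ANKRD63 (1.98 ± 0.59) lost it with any single control or CSB library left out (up to 0.359), and RP11-141M3.6 (2.39 ± 0.39) without CSB library 2 (0.0691).

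**Figure D2:**
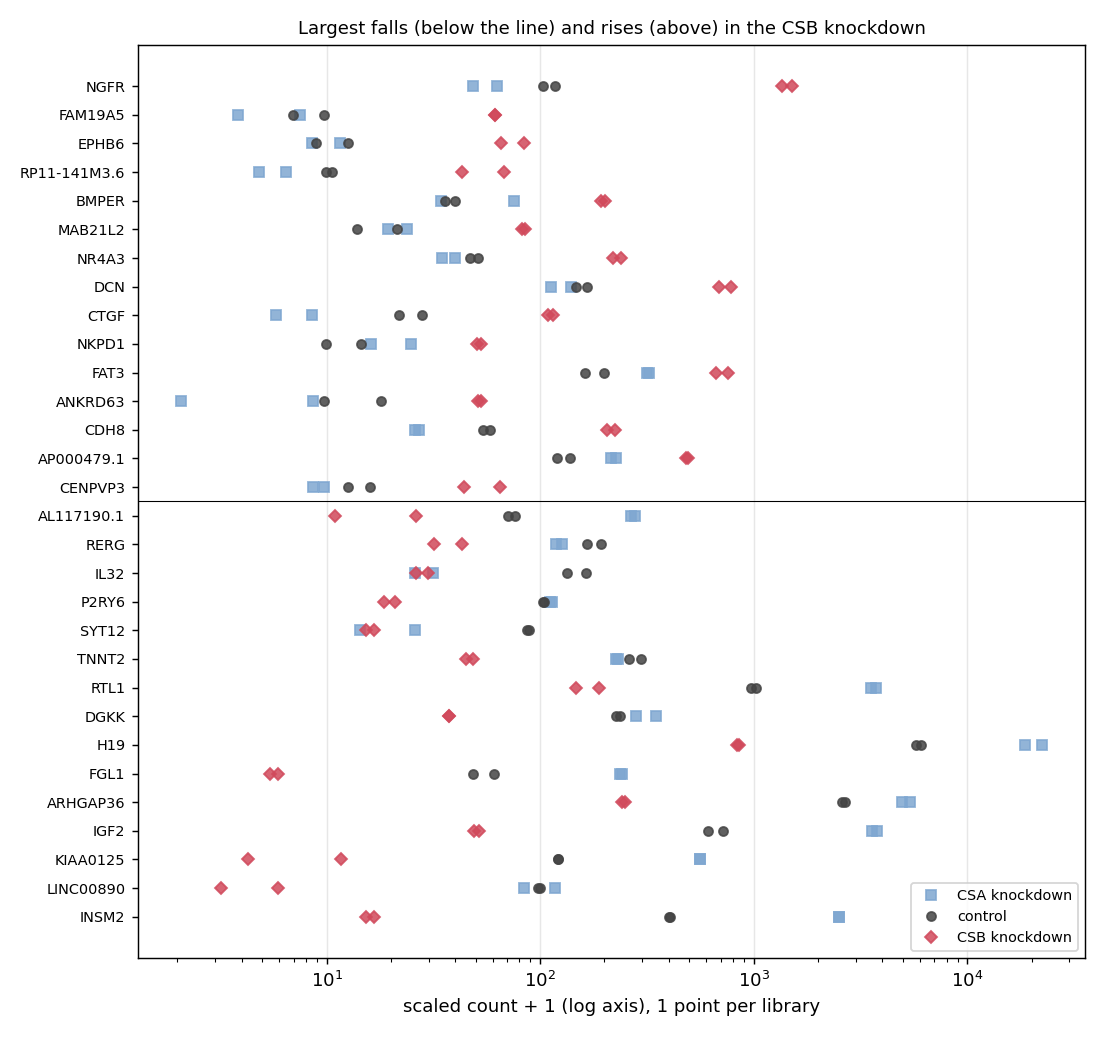
Each point is the scaled count + 1 of 1 library on a log axis, for the 15 largest rises (above the line) and the 15 largest falls (below it) among members in the CSB knockdown, with circles for controls, diamonds for the CSB knockdown and squares for the CSA knockdown. Diamonds lie apart from circles in every row, from INSM2 (14.3 and 15.7 against 399.8 and 406, before the 1 is added) to NGFR (1358 and 1515 against 116 and 102).

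Neuroendocrine and proneural transcription factors moved in both directions. Of 24 members 17 rose [9, 9, 6, 6] and 3 fell [3, 3, 2, 2], with a median log2 fold change of 0.53 against 0.09 over all members. The largest rises were low in level and lost in places: that of EBF3, a helix-loop-helix factor (6.96 and 6.75 to 27.5 and 23.9, 1.76 ± 0.42) was lost with any single control or CSB library left out (adjusted p up to 0.113), that of NHLH2 (2.98 and 3.86 to 16.5 and 11.6, 1.75 ± 0.58) was lost with any single control or CSB library left out (adjusted p up to 0.345), and that of NHLH1 (5.97 and 4.82 to 15.4 and 17.3, 1.45 ± 0.47) was lost without control library 1 or 2, CSA library 1 or CSB library 1 or 2 (adjusted p up to 0.212). The falls were INSM2, NEUROG2 and ELAVL3, a neuronal RNA-binding protein on that list (5838 and 5846 to 3836 and 3939.5, -0.59 ± 0.06), whose call was lost without CSB library 1 or 2 (adjusted p up to 0.0596). Of the 23 noradrenergic identity genes 12 rose [6, 5, 4, 4] and 2 fell [2, 2, 2, 2], and the median was 0.18, or -0.04 with the GC trend removed. SATB1, a chromatin organizer, had 4011 and 4147 against 7003 and 7281 (log2 fold change 0.81 ± 0.05, adjusted p = 3.8e-07). TBX2 (0.66 ± 0.05), SOX11 (0.66 ± 0.06) and TFAP2B (0.65 ± 0.05), transcription factors of the sympathoadrenal circuit, rose by similar amounts with no overlap of libraries. DACH1, a repressor of transcription, was one of the 2 falls, from 189 and 173 to 83.7 and 80.9 (log2 fold change -1.13 ± 0.12, adjusted p = 2.3e-05). MYCN, the oncogene amplified in other neuroblastomas, rose from 116 and 119 to 264 and 248 (1.11 ± 0.13), a call that was lost without CSB library 1 or 2 (adjusted p up to 0.0649). The smaller rises of GATA2 (0.26 ± 0.06), GATA3 (0.18 ± 0.05) and CCND1 (0.18 ± 0.05) were lost with any single control or CSB library left out, that of CCND1 also without CSA library 1 or 2 (adjusted p up to 0.201, 0.178 and 0.184) and had values of -0.035, -0.0252 and -0.0718 once the GC trend was removed.

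Several cargo and release genes of secretory granules fell, among them CHGA, CHGB and SCG3. Of 16 granins and prohormone-processing genes 7 fell [5, 5, 5, 5] and 3 rose [1, 1, 1, 1] (median -0.15). CHGA, chromogranin A of dense-core granules, had 15330.0 and 14469 in the controls against 3566 and 3681 in the CSB libraries (log2 fold change -2.04 ± 0.06, adjusted p = 3.2e-09). CHGB, its relative, went from 1851 and 1792 to 831 and 837 (log2 fold change -1.13 ± 0.06, adjusted p = 1.3e-07), and SCG3, which sorts granins into granules, from 1799 and 1788 to 657 and 664 (log2 fold change -1.44 ± 0.06, adjusted p = 1.8e-08). All 3 were separated from the controls in both libraries. PCSK1N, an inhibitor of the prohormone convertase PCSK1, rose (3502 and 3476 to 5661 and 5434, 0.67 ± 0.05). Of 40 synaptic vesicle and exocytosis genes 18 fell [8, 8, 7, 8] and 12 rose [4, 5, 3, 1] (median -0.16). The complexin CPLX2, a clamp of SNARE-driven fusion, went from 3113 and 3161 to 822 and 908 (log2 fold change -1.86 ± 0.07, adjusted p = 1.1e-08) and the SNARE protein SNAP25 from 2703 and 2776 to 933 and 907 (log2 fold change -1.57 ± 0.05, adjusted p = 6.4e-09). The vesicle protein SV2C rose (2258 and 2079.6 to 3455 and 3604, 0.70 ± 0.06), as did SYN2, a synapsin (0.56 ± 0.07), whose call was lost without CSB library 2 (adjusted p = 0.0506). CYB561, the electron carrier of catecholamine vesicles, fell from 4164 and 3959.6 to 1568 and 1549 (log2 fold change -1.38 ± 0.05, adjusted p = 1.1e-08), and MAOB, which degrades amines, from 513 and 558 to 286 and 285 (-0.90 ± 0.08). These 2 were among 6 falls [4, 2, 2, 4] and 4 rises [2, 1, 1, 1] in 17 genes of catecholamine handling, where ADRA2A, the inhibitory adrenergic autoreceptor, rose from 292 and 273 to 719 and 714 (1.34 ± 0.10). Without CSA library 1 or 2 that list had 2 rises.

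Of 40 genes of growth cones, axons and the neuronal cytoskeleton 23 fell [13, 13, 9, 11] and 9 rose [4, 1, 1, 1], with a median of -0.19. GAP43, a growth cone phosphoprotein, had 1388 and 1449 in the controls against 462 and 428 in the CSB libraries (log2 fold change -1.67 ± 0.06, adjusted p = 1.3e-08). The neurofilament subunits NEFM (1741 and 1689.9 to 661 and 676, -1.36 ± 0.06) and NEFL (2333 and 2373 to 1043 and 1007, -1.20 ± 0.05) fell with it, each with both CSB libraries below both controls. Among 34 guidance genes 12 rose [9, 9, 8, 9] and 9 fell [2, 3, 1, 3], and the median of 0.02 was -0.12 with the GC trend removed. The semaphorin receptor NRP2 went from 111 and 101 to 273 and 271 (1.35 ± 0.12) and the semaphorin SEMA6A from 399.8 and 368 to 680.4 and 728 (0.87 ± 0.08). ROBO2, a receptor for Slit proteins, fell from 552 and 523 to 312 and 355 (-0.69 ± 0.08), a call that was lost without CSB library 1 (adjusted p = 0.0589), and its ligand SLIT2 fell by a like amount (-0.55 ± 0.11), which was lost without control library 1 or 2 or CSB library 1 (adjusted p up to 0.0711).

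The receptors for neurotrophins and for ligands of the GDNF family changed unequally. Neurotrophins signal through Trk kinases and p75, and GDNF family ligands through the RET kinase with a GFRA co-receptor. Of 23 members 7 rose [5, 4, 4, 4] and 7 fell [4, 4, 4, 3], and the median of 0.17 became -0.04 with the GC trend removed. NGFR, given above, rose. NTRK3, the receptor for neurotrophin 3, fell from 958 and 949 to 628 and 645 (log2 fold change -0.58 ± 0.06, adjusted p = 3.5e-05), while NTRK2, the BDNF receptor, did not pass (95.5 and 91.6 against 85.9 and 97.4, -0.03 ± 0.14). RET went from 5566 and 5591 down to 3368 and 3549 (log2 fold change -0.69 ± 0.05, adjusted p = 1.1e-06). Its co-receptor GFRA2 rose from 586 and 658 to 1092 and 1128 (log2 fold change 0.84 ± 0.07, adjusted p = 6.7e-06), and the low-level GFRA3 fell from 19.9 and 30.9 to 4.40 and 5.78 (-2.09 ± 0.32), a call that was lost without CSB library 1 or 2 (adjusted p up to 0.073). GFRA1 (65.6 and 59.8 to 30.8 and 29.7, -1.03 ± 0.27) fell and the ligands ARTN (1.10 ± 0.27), PSPN (0.58 ± 0.17) and BDNF (0.97 ± 0.25) rose, but these 4 calls were lost without CSB library 1 or 2, among others (adjusted p up to 0.236, 0.247, 0.357 and 0.125). The sorting receptor SORCS1 rose (3317 and 3379.9 to 4219 and 4323, 0.35 ± 0.05) and SORT1 had 2232 and 2126 against 1849 and 1995 (-0.18 ± 0.06), a fall that was lost with any single library of the 6 left out (adjusted p up to 0.265). BEX1, an adaptor of p75 signalling, fell from 2848 and 2855 to 1714 and 1632 (log2 fold change -0.77 ± 0.06, adjusted p = 2.6e-06). The ligands NTF4 (7.96 and 1.93 against 14.3 and 10.7) and NRTN (82.6 and 69.5 against 92.5 and 112) did not pass, nor did VGF, a neurotrophin-induced secreted peptide precursor (23847 and 23827 against 21386 and 21602).

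In the insulin-like growth factor axis the ligand IGF2 fell while IGFBP5, IGFBP3 and IRS1 rose. Of 17 members 8 rose [6, 6, 5, 5] and 3 fell [2, 2, 2, 2] (median 0.28). The ligand gene IGF2 (chromosome 11, 2129112 to 2141238, minus strand) had 718 and 613 in the controls against 50.6 and 47.9 in the CSB libraries, 13.5 times lower. IGFBP5, a binding protein that retains IGFs in the matrix, went from 7488 and 7282 to 21334 and 22421 (log2 fold change 1.57 ± 0.05, adjusted p = 4.7e-09) and IGFBP3, the main carrier in serum, from 5910.1 and 5758 to 10089 and 9773 (log2 fold change 0.77 ± 0.05, adjusted p = 4.7e-07). IGFBP2 (0.49 ± 0.06) and the receptor IGF1R (1728 and 1777 to 2374 and 2395, 0.44 ± 0.06) rose, calls lost without CSB library 1 or 2 (adjusted p up to 0.0628 and 0.0557). The adaptor IRS1 rose from 382 and 373 to 575 and 631 (log2 fold change 0.67 ± 0.08, adjusted p = 5.7e-05), while IRS2 (-0.11 ± 0.06) and the insulin receptor INSR (0.20 ± 0.07) did not pass. The scavenging receptor IGF2R went from 5449.6 and 5435 to 6468 and 7079.5 (0.31 ± 0.05), which was lost without control library 1 or 2 (adjusted p up to 0.0768).

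IGF2 is imprinted, and 10 of 31 imprinted members fell [9, 9, 9, 9] and 7 rose [3, 2, 1, 1] (median 0.02, or -0.09 at the lowest of the alternatives). Without CSA library 1 or 2 the rises numbered 4. H19, the non-coding neighbour of IGF2 that is transcribed from the other parental allele (chromosome 11, 1995163 to 2001470, minus strand), had 6097 and 5752 against 848 and 835 (log2 fold change -2.81 ± 0.07, adjusted p = 7.3e-10). Farther along the same chromosome arm SLC22A18, a transporter, rose from 181 and 188 to 372 and 353 (log2 fold change 0.97 ± 0.09, adjusted p = 1.1e-05). CDKN1C, an inhibitor of cyclin-dependent kinases named after its values were seen, had 1019.5 and 878 against 1327 and 1171 (0.40 ± 0.09), a rise that was lost with any single library of the 6 left out (adjusted p up to 0.291). In the imprinted cluster of chromosome 14, RTL1, a retrotransposon-derived gene (chromosome 14, 100880655 to 100884847, minus strand), fell from 966 and 1028 to 146 and 187 (log2 fold change -2.58 ± 0.10, adjusted p = 1.3e-08) and DLK1, a Notch-like transmembrane protein, from 908 and 909.6 to 273 and 298 (log2 fold change -1.67 ± 0.07, adjusted p = 1.8e-08). The microRNA gene AL117190.1, which lies beside RTL1, went from 75.6 and 69.5 to 25.3 and 9.90 (-2.12 ± 0.31), a fall that was lost without control library 1 or 2 or CSA library 1 or 2 (adjusted p up to 0.0904). BEGAIN, a neighbour named after its values were seen, fell from 2653 and 2479.9 to 2007 and 2034 (-0.34 ± 0.06), which was lost without control library 1 or CSB library 1 or 2 (adjusted p up to 0.114).

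Several of these genes stood on the other side of the controls in the CSA knockdown, which shares the control libraries. IGF2 had 3586 and 3769.8 there, and the 2 knockdowns differed (CSB minus CSA -6.19 ± 0.09, adjusted p = 5.6e-13). H19 had 18721 and 22476 (CSB minus CSA -4.61 ± 0.07, adjusted p = 1.8e-12), RTL1 3721 and 3541 (CSB minus CSA -4.45 ± 0.10, adjusted p = 4.1e-11) and INSM2 2506 and 2502 (CSB minus CSA -7.29 ± 0.09, adjusted p = 5.2e-13). CHGA had 22906 and 25867 (CSB minus CSA -2.75 ± 0.06, adjusted p = 4.9e-11), GAP43 2859 and 3037 (CSB minus CSA -2.73 ± 0.06, adjusted p = 5.5e-11) and RET 9189 and 9208 (CSB minus CSA -1.41 ± 0.05, adjusted p = 9.3e-10). Each of these 7 genes was lower in the CSB than in the CSA knockdown. Differences from the CSA knockdown with the opposite sign were found for IGFBP5 (4592 and 4764 with CSA depleted, CSB minus CSA 2.23 ± 0.05, adjusted p = 4.9e-11), NGFR (47.7 and 62.0, CSB minus CSA 4.70 ± 0.13, adjusted p = 2.2e-10) and ADRA2A (69.4 and 62.9, CSB minus CSA 3.42 ± 0.10, adjusted p = 2.2e-10). IL32 was below the controls with CSA depleted as well, at 30.3 and 24.8, and the difference between the knockdowns did not pass (CSB minus CSA -0.02 ± 0.22, adjusted p = 0.964). LINC00890 had 116 and 83.0 with CSA depleted, near the control level (CSB minus CSA -4.50 ± 0.32, adjusted p = 4.1e-07).

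Most enzymes of cholesterol synthesis fell. They convert acetyl-CoA by way of mevalonate and squalene to cholesterol, and their genes are known targets of the sterol-sensing factor SREBP2. All 22 enzymes of the list were members: 16 fell [8, 6, 6, 5] and 18 with the GC trend removed, 0 rose in any of the alternatives that left out a library, and the median was -0.32. At the head of the pathway HMGCS1, the HMG-CoA synthase, had 1303 and 1338 in the controls against 349 and 369.6 in the CSB libraries (log2 fold change -1.88 ± 0.06, adjusted p = 6.7e-09). Both CSB libraries were far below both controls. In the squalene steps FDFT1, squalene synthase, went from 2459.7 and 2515 to 1736 and 1668 (log2 fold change -0.55 ± 0.06, adjusted p = 2.7e-05) and SQLE, squalene epoxidase, from 1482 and 1437 to 1032 and 968 (log2 fold change -0.55 ± 0.06, adjusted p = 2.6e-05). ACAT2, which forms acetoacetyl-CoA, fell from 619 and 623 to 436 and 456 (-0.48 ± 0.07). These falls were without overlap between groups. DHCR7, which reduces the sterol ring, went from 1411 and 1301 to 940.2 and 957 (-0.51 ± 0.06), a call that was lost without CSB library 1 or 2 (adjusted p up to 0.0634). Of the others, MVD (-0.04 ± 0.08), MVK (-0.21 ± 0.07), GGPS1 (-0.06 ± 0.06), CYP51A1 (0.03 ± 0.17) and NSDHL (-0.13 ± 0.07) did not pass.

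Regulators and transporters of cholesterol split. Of 25 members 10 rose [2, 3, 1, 1] and 7 fell [5, 4, 2, 3] (median 0.13). SREBF2, which encodes SREBP2, fell from 2692 and 2635 to 1760.5 and 1777 (log2 fold change -0.59 ± 0.05, adjusted p = 4.2e-06) and its retention factor INSIG1, itself a target of SREBP2, from 798 and 799.6 to 495 and 532 (log2 fold change -0.64 ± 0.07, adjusted p = 5.0e-05). The INSIG1 call was lost without CSB library 1 (adjusted p = 0.0502). STARD4, a sterol carrier, fell from 503 and 524 to 334 and 323 (-0.65 ± 0.09), a call that was lost without control library 2 or CSB library 1 or 2 (adjusted p up to 0.0925). In the opposite direction ABCA1, which exports cholesterol, rose from 76.6 and 88.7 to 230.1 and 226 (log2 fold change 1.46 ± 0.14, adjusted p = 1.2e-05). NPC1 (652 and 691 to 931 and 927, 0.47 ± 0.07) and NPC2 (521 and 493 to 697 and 684, 0.45 ± 0.08), which release cholesterol from lysosomes, rose, though not without CSB library 1 or 2 or control library 1, nor for NPC2 without control library 2 (adjusted p up to 0.0856 and 0.133). SREBF1, the related factor of fatty acid synthesis, rose by 0.17 ± 0.06, but its value became -0.10 with the GC trend removed, and the call was lost with any single control or CSB library left out (adjusted p up to 0.276). Of 25 genes of fatty acid synthesis 12 fell [8, 9, 7, 8] and 3 rose [3, 3, 3, 3] (median -0.17). The desaturase SCD went from 4699.7 and 4730.3 to 2770.1 and 2901 (log2 fold change -0.73 ± 0.05, adjusted p = 9.2e-07), ELOVL6, an elongase, from 1422 and 1356 to 944 and 933 (-0.56 ± 0.06), and ACSL4, which activates polyunsaturated fatty acids, from 834 and 762 to 423 and 427 (-0.91 ± 0.07).

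Promoters of sterol genes are shown because 16 of the enzymes fell and the genes share a known regulator. The 250 bases before the start site were taken from RefSeq (GRCh38.p14), which had an entry for 17 of the 22 enzymes. A sterol-type motif was searched as CACNCCAC or CACCCNAC and the CCAAT box as CCAAT, each on both strands. Of 12 enzymes that fell, 5 (41.7%) held the sterol-type motif and 10 (83.3%) a CCAAT box, and of 5 that did not fall, 0 and 4. Over all 27305 genes with a promoter entry the shares were 7.98% and 37.0%, and over 11093 members 9.17% and 40.9%. A gene was counted where any of its entries held a match. Such a match describes the letters and is not shown to be a binding site. The enzymes are known SREBP2 targets, and the list and the motif forms were chosen with earlier results known. A part of SREBP2 in the falls was not tested. The 4 promoters below, of 2 enzymes and 2 regulators that fell, are printed 5′ to 3′ on the gene's strand, with the matches to either motif in capitals. HMGCS1 lies at chr5:43313413-43313662 (minus strand), INSIG1 at chr7:155297628-155297877 (plus), SREBF2 at chr22:41832855-41833104 (plus) and DHCR7 at chr11:71449044-71449293 (minus).
HMGCS1: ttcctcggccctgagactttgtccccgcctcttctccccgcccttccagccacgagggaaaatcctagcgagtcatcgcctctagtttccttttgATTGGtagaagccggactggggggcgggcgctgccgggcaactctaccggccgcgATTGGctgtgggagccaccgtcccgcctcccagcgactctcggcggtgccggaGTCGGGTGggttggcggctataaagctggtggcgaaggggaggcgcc
INSIG1: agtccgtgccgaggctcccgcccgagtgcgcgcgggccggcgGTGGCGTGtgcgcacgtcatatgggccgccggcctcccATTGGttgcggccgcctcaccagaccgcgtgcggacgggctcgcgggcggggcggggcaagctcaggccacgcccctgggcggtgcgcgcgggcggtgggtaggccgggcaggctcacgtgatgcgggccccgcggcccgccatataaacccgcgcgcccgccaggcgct
SREBF2: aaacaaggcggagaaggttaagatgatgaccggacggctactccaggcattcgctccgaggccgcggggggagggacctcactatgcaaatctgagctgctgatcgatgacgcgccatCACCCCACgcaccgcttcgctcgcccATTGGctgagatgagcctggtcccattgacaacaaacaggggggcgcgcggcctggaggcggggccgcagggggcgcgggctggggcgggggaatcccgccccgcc
DHCR7: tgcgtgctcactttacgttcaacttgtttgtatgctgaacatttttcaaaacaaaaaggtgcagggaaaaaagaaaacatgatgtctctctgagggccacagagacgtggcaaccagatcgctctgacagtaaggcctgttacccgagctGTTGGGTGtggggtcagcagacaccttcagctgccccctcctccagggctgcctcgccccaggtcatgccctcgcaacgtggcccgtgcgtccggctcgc

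HMGCS1, the enzyme with the largest fall, held 1 sterol-type match and 2 CCAAT boxes, and INSIG1 and SREBF2 held 1 of each. DHCR7 held 1 sterol-type match. Since the promoters were chosen for the sterol-type motif, its presence in each of them was fixed by that choice and is no result.

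Among 26 genes of the BCL2 family and apoptosis 12 rose [5, 6, 7, 5] and 2 fell [1, 1, 0, 0] (median 0.16). In that list 53.8% changed and 46.2% rose, against 42.8% and 26.0% of protein-coding members. BMF, a BH3-only protein, went from 862 and 939.5 to 2872 and 3003 (log2 fold change 1.71 ± 0.06, adjusted p = 1.3e-08) and DIABLO, an antagonist of caspase inhibitors, from 259 and 284 to 699 and 687 (1.35 ± 0.08). The pro-apoptotic BBC3, or PUMA, had 783 and 670.4 in the controls against 1856 and 1864 in the CSB libraries (log2 fold change 1.36 ± 0.09, adjusted p = 5.4e-07). No library overlapped between groups for these 3. Other rises concerned genes of growth arrest, stress and repair, which are named singly and not as a list. PLK2, a stress-induced kinase, went from 234 and 223 to 756 and 793 (log2 fold change 1.76 ± 0.09, adjusted p = 7.2e-08), and GDF15, a secreted stress cytokine, from 379.9 and 380.0 to 1155 and 1093 (log2 fold change 1.56 ± 0.09, adjusted p = 3.5e-07). The inhibitor of cyclin-dependent kinases CDKN1A (3903 and 3929.7 to 6318 and 6186, 0.68 ± 0.05), the ubiquitin ligase MDM2 (1459 and 1412 to 2326 and 2371, 0.71 ± 0.06) and the RNA-binding protein ZMAT3 (1842 and 1928 to 3579 and 3800.0, 0.97 ± 0.06), named after their values were seen, rose likewise. So did DDB2, a sensor of ultraviolet lesions (858 and 845 to 1302 and 1376, 0.65 ± 0.06), and MIR34AHG, host transcript of miR-34a (226 and 234 to 636 and 582, 1.40 ± 0.09). The cyclin CCNG1 fell (-0.19 ± 0.06), a call that was lost with any single control or CSB library left out (adjusted p up to 0.255). With CSA depleted, CDKN1A had 2548 and 2706 (CSB minus CSA 1.25 ± 0.05, adjusted p = 3.4e-09) and PLK2 169 and 158 (CSB minus CSA 2.24 ± 0.09, adjusted p = 2.3e-09).

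**Figure D3:**
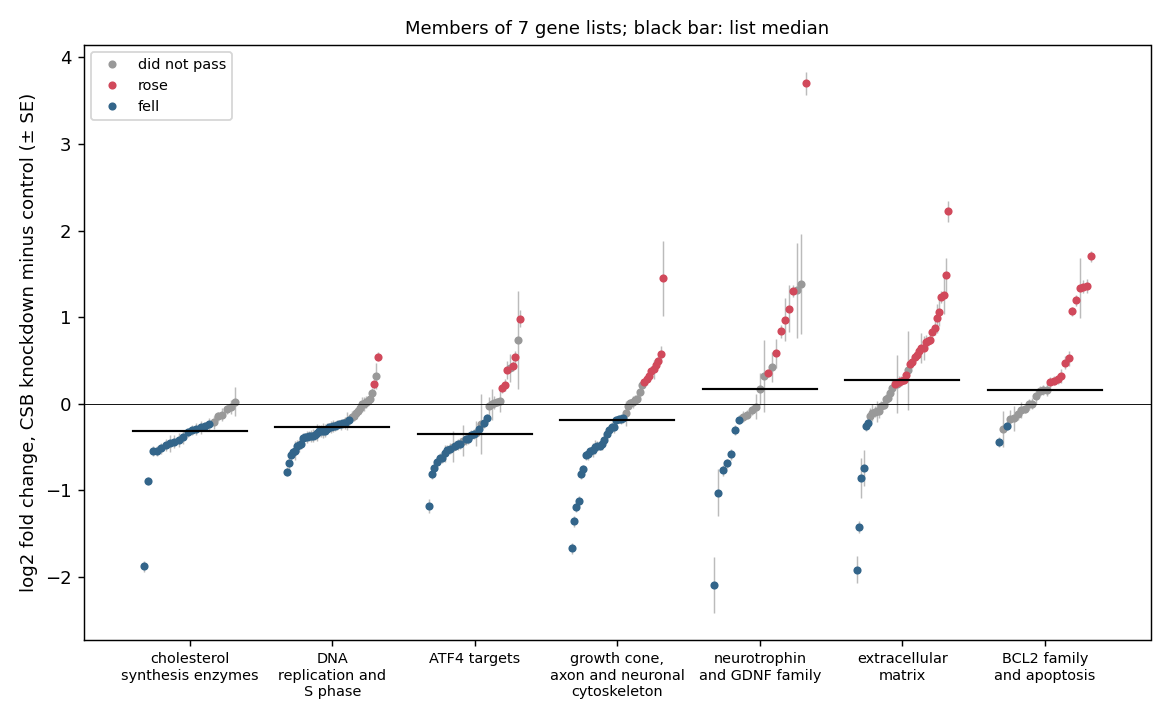
Each point is the log2 fold change of 1 member (CSB knockdown minus control, ± SE) within 7 gene lists, coloured by whether it rose, fell or did not pass, and a black bar marks the list median. Cholesterol enzymes lie at or below 0 apart from CYP51A1, with a median of -0.32, and the median of the BCL2 family and apoptosis list is 0.16.

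Most genes of DNA replication and S phase fell. Of 46 S phase genes 31 fell [9, 10, 8, 9] and 2 rose [1, 1, 1, 1] (median -0.27). The replicative helicase subunit MCM6 went from 3397 and 3398 to 1977 and 1968 (log2 fold change -0.78 ± 0.05, adjusted p = 5.4e-07), the loading factor CDC6 from 1339 and 1283 to 849 and 779 (log2 fold change -0.69 ± 0.06, adjusted p = 9.1e-06) and GINS2, a partner of the helicase, from 1049 and 1082 to 704 and 706 (log2 fold change -0.60 ± 0.06, adjusted p = 1.6e-05). In all 3 both CSB libraries were lower than both controls. CDT1, which licenses origins with CDC6, rose from 1803 and 1736 to 2507 and 2659 (log2 fold change 0.55 ± 0.05, adjusted p = 1.7e-05). Of the 33 S phase genes that changed, 10 also differed between the CSB and CSA knockdowns, against 4642 of 6499 over all members. The others were not told apart from the CSA knockdown. Of 40 G2/M genes 5 rose and 8 fell, and most of these calls were lost with any single control or CSB library left out. The changed share of 32.5% was close to the 36.1% of all members and below the 42.8% of protein-coding members. The median of 0.05 was -0.04 under the lowest of the alternatives. KIF20A, a kinesin of cytokinesis, had 1798 and 1699.6 against 2215 and 2194 (0.34 ± 0.05), a rise that was lost without CSB library 1 or 2 (adjusted p up to 0.0602), and MAD2L1, of the spindle checkpoint, 2506 and 2551 against 1865 and 1747 (-0.49 ± 0.06), a fall that was lost without CSB library 1 or 2 (adjusted p up to 0.0686).

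Transcripts of the repair pathway in which CSB acts moved in both directions. The changed share of 45.9% was close to the 42.8% of protein-coding members, against 36.1% of all members. Falls made up 29.7% of the list, against 16.8% of protein-coding members. Of 37 genes of excision repair and its transcription-coupled branch, ERCC6 included, 11 fell [5, 5, 5, 4] and 6 rose [3, 4, 2, 2], with a median of -0.04. TCEA1, the elongation factor TFIIS that rescues stalled polymerase II, fell from 2296 and 2371 to 1355 and 1319 (log2 fold change -0.80 ± 0.06, adjusted p = 9.6e-07). RPA3, a subunit of the single-strand binding protein, went from 1357 and 1537 to 926 and 795 (-0.75 ± 0.08), which was lost without CSB library 2 (adjusted p = 0.0524). UVSSA, a partner of CSB at the stalled polymerase, rose from 862 and 872 to 1194 and 1209 (0.47 ± 0.06), a call that was lost without CSB library 1 or 2 (adjusted p up to 0.0518). CSB has also been tied to ribosomal RNA synthesis, and of 48 genes of ribosomal RNA transcription and ribosome assembly 17 fell [4, 2, 2, 3] and 3 rose [2, 1, 2, 1] (median -0.12). DKC1, a pseudouridine synthase, had 2673 and 2509.8 against 1852 and 1864 (-0.48 ± 0.06), a fall that was lost without CSB library 1 (adjusted p = 0.0506). NCL, or nucleolin, named after its values were seen, had 13871 and 14010.0 against 11394 and 11668 (-0.27 ± 0.05), which was lost without control library 1 or 2 or CSB library 1. With CSA depleted NCL had 11463 and 11673, and the knockdowns did not differ (CSB minus CSA -0.005 ± 0.047, adjusted p = 0.961). Of the 20 genes of the ribosome assembly list that changed, 11 differed between the knockdowns. In that list 41.7% changed and 35.4% fell, against 42.8% and 16.8% of protein-coding members. Of 48 cytosolic ribosomal proteins, whose pseudogene copies can share reads, 17 rose [0, 0, 0, 0] and 3 fell [1, 1, 0, 1] (median 0.15), against 10 and 11 rises without CSA library 1 and 2. With other scalings 5 to 7 rose and 4 fell.

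Matrix, mesenchymal and YAP target genes rose in the majority of calls. Of 42 matrix genes 23 rose [16, 15, 11, 10] and 6 fell [2, 2, 2, 3] (median 0.27), and 2 fell without CSA library 1 or 2. Beside DCN, the elastic fibre protein FBLN5 rose (44.8 and 43.4 to 118 and 134, 1.49 ± 0.19), a call that was lost without CSB library 1 or 2 (adjusted p up to 0.0613), and so did BGN, or biglycan (48.7 and 44.4 to 126 and 101, 1.26 ± 0.22), a call that was lost without control library 2 or CSB library 1 or 2 (adjusted p up to 0.0773). TNR, the neural matrix protein tenascin R, fell from 794 and 728 to 279 and 286 (log2 fold change -1.43 ± 0.07, adjusted p = 1.1e-07) and TIMP3, an inhibitor of matrix proteases, from 256 and 245 to 66.1 and 65.2 (log2 fold change -1.92 ± 0.15, adjusted p = 3.0e-06). Of 31 genes of mesenchymal neuroblastoma identity 14 rose [12, 11, 10, 9] and 3 fell [0, 0, 0, 0] (median 0.26). EGFR, the epidermal growth factor receptor, had 1093 and 1049.5 against 2769 and 2873 (log2 fold change 1.40 ± 0.07, adjusted p = 6.0e-08), CD44, a hyaluronan receptor, 175 and 205 against 479 and 475 (log2 fold change 1.33 ± 0.11, adjusted p = 4.6e-06), and PDGFRA, a receptor that also marks fibroblasts, 1038 and 1048 against 1924 and 1956 (log2 fold change 0.89 ± 0.06, adjusted p = 8.2e-07). Each rose in both CSB libraries above both controls. SNAI2, a repressor of epithelial genes, went from 394 and 366 to 1045 and 1009.8 (1.43 ± 0.12), which was lost without CSB library 1 or 2 (adjusted p up to 0.0543). The summed fibroblast markers given above moved with these lists but share genes with them, DCN and PDGFRA among them, and so are not a separate observation. Of 21 YAP-TEAD targets 13 rose [7, 5, 4, 4] and 3 fell [0, 1, 0, 0] (median 0.37), among them CRIM1, a transmembrane regulator of bone morphogenetic proteins (272 and 224 to 665 and 625, 1.38 ± 0.11). Contractile genes went the other way, with 12 of 24 falling [5, 5, 4, 5] and 3 rising [1, 1, 0, 0] (median -0.18). TAGLN, an actin-binding protein of smooth muscle, fell from 1384 and 1502 to 741 and 802 (log2 fold change -0.90 ± 0.07, adjusted p = 2.6e-06), and ACTG2, whose reads can mix with those of ACTA2, from 229.8 and 244 to 76.0 and 55.3 (-1.85 ± 0.22).

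Signalling lists contained more rises than falls, apart from cytokines. Of 51 genes of Notch, Wnt and bone morphogenetic protein signalling 29 rose [19, 19, 17, 14] and 8 fell [2, 3, 2, 2] (median 0.41), and 4 fell without CSA library 1 or 2. NOTCH1, a receptor, had 415 and 412 in the controls against 1225 and 1285 in the CSB libraries (log2 fold change 1.60 ± 0.09, adjusted p = 1.5e-07). SMAD6, an inhibitor of the pathway, went from 1996 and 1831 to 5344 and 5240.5 (log2 fold change 1.47 ± 0.06, adjusted p = 1.8e-08), and INHBA, an activin subunit, from 167 and 152 to 511 and 543 (log2 fold change 1.72 ± 0.10, adjusted p = 4.1e-07). Their groups did not overlap. Of 31 immediate-early and ERK feedback genes 15 rose [10, 8, 6, 7] and 3 fell [1, 0, 0, 0] (median 0.38). Beside NR4A3, the feedback inhibitor SPRY1 went from 264 and 226 to 493 and 502 (1.02 ± 0.10), which was lost without CSB library 1 or 2 (adjusted p up to 0.0527). The following 4 were named after their values were seen: JUN rose (1846 and 1892 to 2844 and 2822, 0.60 ± 0.06), a call that was lost without CSB library 1 (adjusted p = 0.0523), while FOS (0.66 ± 0.23), EGR1 (0.23 ± 0.09) and MYC (0.06 ± 0.05) did not pass. NF-kB targets and cytokines had 14 members, of which 4 fell [2, 2, 2, 2] and 2 rose [2, 0, 0, 0] (median -0.34). CCL2, a monocyte chemokine, fell from 257 and 275 to 88.1 and 90.8 (log2 fold change -1.56 ± 0.13, adjusted p = 3.8e-06). TNFRSF9, a receptor of the TNF family, went from 48.7 and 47.3 to 6.61 and 4.13 (-2.97 ± 0.49), which was lost with any single control or CSB library left out (adjusted p up to 0.113). Of 32 interferon-stimulated genes 7 rose and 4 fell (median 0.34), and fewer passed with any single control or CSB library left out. The changed share of 34.4% was close to the 36.1% of all members and below the 42.8% of protein-coding members.

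Stress response and metabolic lists contained more falls than rises, except that of autophagy. Of 36 targets of ATF4, the factor of the integrated stress response, 19 fell [13, 12, 13, 11] and 6 rose [3, 3, 2, 3] (median -0.34). PSAT1, of serine synthesis, had 1317 and 1479.7 against 632 and 599.8 (log2 fold change -1.18 ± 0.08, adjusted p = 8.2e-07), GARS, the glycyl-tRNA synthetase, 3612 and 3653 against 2102 and 2043 (log2 fold change -0.81 ± 0.06, adjusted p = 1.4e-06), and MTHFD2, of mitochondrial folate metabolism, 1369 and 1381 against 839 and 801 (log2 fold change -0.74 ± 0.06, adjusted p = 3.0e-06). All 3 fell without overlap. ATF5, a related transcription factor, rose from 176 and 202 to 369 and 378 (log2 fold change 0.98 ± 0.10, adjusted p = 2.5e-05). Among 28 genes for protein folding in the endoplasmic reticulum 10 fell [6, 5, 5, 5] and 4 rose [2, 2, 1, 1] (median -0.09), with the chaperone CANX falling from 8524 and 8228 to 5263 and 5449 (-0.65 ± 0.05) and the stress sensor EIF2AK3 rising from 395 and 336 to 702 and 686 (0.93 ± 0.09). Of 33 antioxidant genes 14 fell [9, 9, 7, 9] and 3 rose [1, 1, 0, 0] (median -0.14). The mitochondrial peroxiredoxin PRDX3 went from 2539 and 2503 to 1692 and 1586 (-0.62 ± 0.06) and the glutathione transferase GSTP1 from 10103 and 10092 to 7069.5 and 6758 (-0.55 ± 0.05). Among 35 glycolytic and hypoxia-responsive genes 15 fell [10, 9, 6, 6] and 5 rose [2, 2, 1, 1] (median -0.09). ALDOC, the brain aldolase, had 491 and 505 against 208 and 189.8 (log2 fold change -1.32 ± 0.08, adjusted p = 4.4e-07).

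Of 45 nuclear genes of oxidative phosphorylation and its support 19 fell [3, 3, 4, 2] and 1 rose [0, 1, 0, 0] (median -0.15), and 8 fell without CSA library 1 or 2. NDUFB10, a subunit of complex I, went from 1569.5 and 1626 to 926 and 919 (log2 fold change -0.79 ± 0.07, adjusted p = 4.2e-06), and TFAM, which packages mitochondrial DNA, from 1824 and 1815 to 1294 and 1297 (log2 fold change -0.49 ± 0.05, adjusted p = 2.4e-05). The changed share of this list, 44.4%, was close to the 42.8% of protein-coding members, and its share of falls was 42.2% against 16.8%. Of the 13 mitochondrially encoded transcripts 3 fell and 1 rose, none of them with any single control or CSB library left out. Their changed share was 30.8%, against 36.1% of all members and 42.8% of protein-coding members. Among 47 genes of autophagy and lysosomes 19 rose [11, 9, 5, 5] and 5 fell [1, 1, 2, 1] (median 0.17). Changed genes made up 51.1% of this list and rises 40.4%, against 42.8% and 26.0% of protein-coding members. MCOLN1, the lysosomal calcium channel, rose from 514 and 506 to 866 and 875 (log2 fold change 0.77 ± 0.07, adjusted p = 8.6e-06), whereas TPP1, a lysosomal peptidase, fell from 935 and 957 to 570.3 and 621 (log2 fold change -0.67 ± 0.07, adjusted p = 1.8e-05). MAP1LC3B, which coats autophagosomes, had 1445 and 1454 against 1074 and 966 (-0.51 ± 0.09), a fall that was lost with any single control or CSB library left out (adjusted p up to 0.199).

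Removing the GC trend moved the split of several lists toward falls. Rises and falls were then 7 and 5 of noradrenergic identity genes, 13 and 5 of neuroendocrine factors, 5 and 9 of the neurotrophin and GDNF family and 7 and 5 of the IGF axis. They were 1 and 8 for catecholamine handling, 2 and 10 for granins, 8 and 22 for synaptic vesicle genes and 1 and 16 for contractile genes. For guidance genes they were 9 and 10, for sterol regulators and transporters 7 and 8, for excision repair 4 and 12, for ribosomal proteins 8 and 5 and for the endoplasmic reticulum 3 and 14. Immediate-early genes had 13 and 7, the BCL2 family 10 and 5, and Notch, Wnt and bone morphogenetic protein genes 25 and 12. The shift was not particular to the GC trend. The member median of 0.09 became 0.007 with it removed and 0.003 with a gene length trend removed instead. With TMM factors it was 0.016 and with upper quartile scaling 0.018. Under removal of the length trend granins had 2 and 10, guidance genes 10 and 10 and noradrenergic identity genes 8 and 6. The part of GC content in the shift was not tested.

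**Figure D4:**
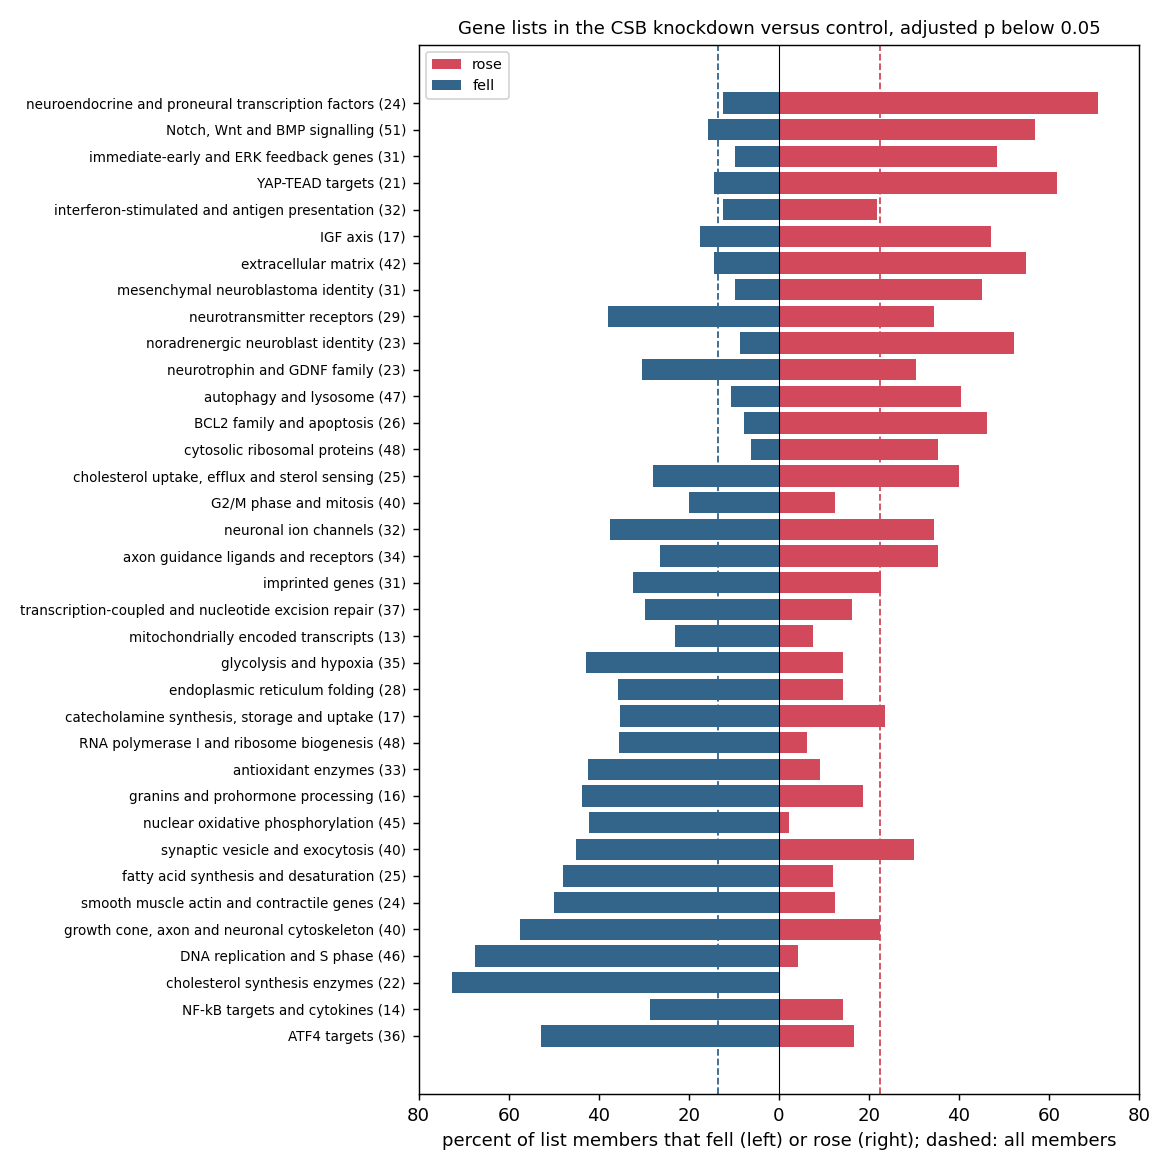
Bars give the percent of the members of each list reported here that fell (left) or rose (right) in the CSB knockdown at an adjusted p below 0.05, with the number of members in parentheses and lists ordered by median log2 fold change. Dashed lines mark 13.6% fallen and 22.5% risen among all members, and cholesterol enzymes have no bar on the right.

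Of the genes named, those listed next overlap another listed gene with at least 5% of their level, and with the strand setting unknown, their reads cannot be told apart from those of that gene: ACAT2, ALDOC, ANKRD63, ATF5, BDNF, BGN, CRIM1, CYP51A1, DHCR7, DIABLO, EBF3, EIF2AK3, GARS, GGPS1, GINS2, HAND2, KIF20A, MAB21L2, MAP1LC3B, MCOLN1, MIR34AHG, MVK, MYCN, NEFM, NEUROG2, NKPD1, NPC1, NPC2, NTF4, PHOX2A, PSPN, RERG, RP11-141M3.6, RP11-384O8.1, RPA3, SATB1, SEMA6A, SREBF1, STARD4, TAGLN, TBX2 and TIMP3.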

How the data were processed

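RNA was sequenced from 6 SH-SY5Y libraries, 2 in each of 3 groups. Per the submitters' processing notes, reads were checked with FastQC and aligned to hg38 with HISAT2 2.0.4. How reads were counted, with which annotation and strand setting, is not stated in the labels, headers or notes. The value column deposited by the authors is headed as FPKM, but it holds a signal of reads per gene divided by one size factor per library: 100% of values were whole multiples, within 0.01, of the value of 1 read. It is not corrected for gene length, so levels were not compared between genes. Genes not listed in a library were taken as 0.

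Values were analysed as log2(value + 1) with limma 3.58.1 in R 4.3.3 (empirical Bayes with a variance trend), fitted to all 6 libraries with contrasts for each pair of groups, over genes with a mean of at least 1 in some group. The control libraries are shared by the CSB and CSA comparisons. Fits of edgeR 4.0.16 (7168 members called) and DESeq2 1.42.0 were run on the recovered whole reads. The fit was tested on simulated data with known changes, which were fewer and mostly larger than those called here. That test does not bear on calls of small changes. The 18 alternatives planned were other pseudocounts, filters, scalings, tools, a replicate block and the omission of each library. Removal of a GC or gene length trend was chosen after seeing the data. Replicate numbers did not pair the libraries: same-numbered deviations from the group means correlated at -0.0402, -0.0323 and -0.0316 over 13397 genes.

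Members and the 42 gene lists were chosen with earlier results of these data known, as were the motif forms. The rule for named genes took the 15 largest rises and falls with a mean of at least 50 and no overlap of groups, the up to 3 largest of each direction in a list, the 5 largest among lincRNAs, and any member of the neurotrophin, IGF, noradrenergic and sterol lists. TH, DBH, NCL, CDKN1A, MDM2, ZMAT3, FOS, JUN, EGR1, MYC, CDKN1C and BEGAIN were added after their values were seen. A list and some members that the rule allows are not reported here.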

Additional observations from a re-analysis of the deposited data

How the results depend on the processing

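The count of members called in the CSB knockdown depended most on how the variance was estimated and on single libraries. Without a variance trend limma called 1536 members, 942 rises and 594 falls, and between the 2 knockdowns 4076. DESeq2 called 2194 rises. Leaving out each library in turn gave 1704 to 5218 calls, 890 to 3233 rises and 771 to 1985 falls, and 3637 to 5941 members that differed between the knockdowns. The lowest counts came without CSB library 1 or 2, and since such a fit leaves a group with 1 library, that library is assumed to vary like the other groups. Of 293 named genes that passed, 124 did so under every alternative tried. The values of GATA2 (-0.035), GATA3 (-0.0252), CCND1 (-0.0718) and SREBF1 (-0.10) reversed with the GC trend removed, an alternative chosen after seeing the data. The cause of these changes was not tested, beyond the removal of the trend itself. The replicate numbers did not pair the libraries, and a replicate block gave 6393 calls, and 7832 between the knockdowns. A fit of the control and CSB libraries alone (5238 calls) holds no CSA library and gives no value for the difference between the knockdowns. Depth limits low genes: 9.4% of members with a mean of 10 to 50 passed, against 54.7% of those above 1000.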

Other observations

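Among 1084 lincRNA members 107 rose and 42 fell, so 13.7% changed, against 36.1% of all members. Their median log2 fold change was 0.16 against 0.09 over all members and 0.195 over members with a mean of 10 to 50. Beside LINC00890, KIAA0125, AP000479.1 and MIR34AHG, RP11-384O8.1 rose from 55.7 and 52.1 in the controls to 196 and 187 in the CSB libraries (1.81 ± 0.19). CTD-2334D19.1 rose from 62.7 and 70.4 to 163 and 175 (1.33 ± 0.15), and LINC01315 fell from 153 and 151 to 85.9 and 77.6 (-0.89 ± 0.12). The libraries of the groups did not overlap for these 3. LINC00304 rose (1.58 ± 0.20), a call that was lost without CSB library 1 or 2 (adjusted p up to 0.062).

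Of 32 neuronal ion channel genes 11 rose [6, 4, 2, 2] and 12 fell [7, 7, 6, 7], with a median of 0.04 that was -0.05 at the lowest of the alternatives. CACNA1G, a T-type calcium channel, rose from 366 and 339 to 802 and 919.9 (1.28 ± 0.10) and CACNA1C, an L-type channel, from 334 and 313 to 707 and 655 (1.07 ± 0.08). In contrast CACNA2D2, an auxiliary subunit, fell from 2289.7 and 2284 to 1212 and 1162 (-0.94 ± 0.06) and the sodium channel SCN9A from 603 and 557 to 306 and 283 (-0.97 ± 0.09). All 4 were separated between groups. Of 29 neurotransmitter receptor genes 10 rose [5, 4, 2, 3] and 11 fell [4, 4, 3, 3], and 5 fell without CSA library 1 or 2. The median of 0.23 was -0.09 at the lowest of the alternatives. GRM8, a metabotropic glutamate receptor, fell from 529 and 558 to 157 and 169.9 (-1.73 ± 0.08) and CHRNA3, a ganglionic nicotinic receptor subunit, from 3886 and 4020.4 to 2249 and 2199.5 (-0.83 ± 0.05). CHRM2, a muscarinic receptor, rose from 1462 and 1464 to 2422 and 2599 (0.78 ± 0.06).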
